A study of Mus musculus with 2 samples.

Results

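Between neighbouring CTCF peaks of newborn mouse heart lie 763 long gaps, stretches of at least 400 kb of chromosomes 1 to 19 in which the optimal peak list of the authors has no summit. They were found by sorting the 43380 summits of that list by position and keeping each interval between successive summits that reached 400 kb and held less than 10% unknown bases (N) in the mouse genome mm10. These are 1.76% of the 43361 intervals, and together they span 629 Mb, which is 26.5% of the length of all intervals under the limit on N. The peaks were measured by ChIP-seq, the sequencing of DNA bound by a protein and pulled down with an antibody, here against CTCF, in heart tissue of B6NCrl mice at postnatal day 0. There are 2 libraries in 1 group, with no treated or mutant group, and the labels tie both to 1 tissue sample and 1 donor, so that differences between them may be technical; the sex is recorded as not collected. The gaps come from the authors' optimal list, 1 of 2 lists that passed the irreproducible discovery rate (IDR) filter, while relaxed lists of 300000 peaks, for each library and for both pooled, also hold weak peaks. The peaks themselves chose the gaps, so the absence of optimal peaks in them and the density of peaks around them are descriptions, and no test was made.

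CTCF is a DNA-binding protein with many zinc fingers that recognises a long, GC-rich sequence. It stops cohesin as cohesin extrudes chromatin loops, most effectively at sites whose motifs point towards each other, and so shapes which enhancers can reach which promoters. Many of its sites are shared between tissues. Gene-poor, AT-rich regions of chromosomes and the introns of very long neuronal genes are known as parts of the genome with large distances between genes or between regulatory elements.

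The sequences at the borders and those deep inside the gaps are shown first, because the same 14-base CTCF core consensus marks both. Each line gives 40 bases of mm10 in the direction of the core, which is in capitals. At the borders of the 10 longest gaps a core was searched within 50 bp of the summit. None with at most 2 mismatches was found at either border of the gap of rank 4 or at the right border of that of rank 8. The left border of the second longest gap, between genes on chromosome 7, had the strongest peak of these, with a pooled signal of 213 (108 and 104 in replicates 1 and 2) and a core with 1 mismatch:
border chr7:19956701-19956740, minus strand: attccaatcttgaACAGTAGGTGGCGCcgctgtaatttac
The left border of the third longest gap, in an intron of the gene records Gm45341 and Gm45455 on chromosome 8, held a core with 0 mismatches and a signal of 177 (102 and 74.3):
border chr8:50293721-50293760, minus strand: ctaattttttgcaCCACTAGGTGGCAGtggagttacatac
The ninth longest gap, on chromosome 14, had a core with 1 mismatch at each border, on opposite strands and pointing into the gap, at signals of 154 (87.4 and 65.6) on the left and 25.8 (13.9 and 9.92) on the right:
left border chr14:80845731-80845770, plus strand: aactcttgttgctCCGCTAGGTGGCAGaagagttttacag
right border chr14:83944366-83944405, minus strand: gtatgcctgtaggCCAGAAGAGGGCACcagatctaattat
The weakest border peak of the tenth longest gap, on the right and between genes on chromosome 1, had a core with 0 mismatches at a signal of 17.5 (8.32 and 7.10):
border chr1:115533919-115533958, plus strand: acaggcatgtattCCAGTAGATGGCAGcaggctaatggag
Signals of these printed peaks differed by over 10-fold, and their cores had 0 or 1 mismatch. Other borders of the 10 gaps had cores with 2 mismatches or none, so these lines do not compare signal with core match.

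Cores with 0 mismatches also lay far inside the gaps. Among those outside repeat-masked sequence and without a relaxed peak, the 2 farthest from any optimal summit lay in the longest gap, 2457 kb and 2188 kb from a border, in introns of the vomeronasal receptor gene Vmn2r46 and of the gene record Gm3972. The 40 bases are identical at both places:
inside chr7:9756673-9756712, minus strand: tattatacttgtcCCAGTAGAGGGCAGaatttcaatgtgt
inside chr7:9487602-9487641, minus strand: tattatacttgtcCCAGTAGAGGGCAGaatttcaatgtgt
The next lay 2099.9 kb from a border of that gap, in an intron of Nlrp4b, where both 32-base words sampled around it occur only once in the genome:
inside chr7:10689455-10689494, plus strand: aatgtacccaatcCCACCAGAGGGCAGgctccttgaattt
A core with a relaxed peak over it, at a signal of 21.6 (9.73 and 11.4), lay in masked sequence in an intron of Plxdc2, 92.7 kb from the border of a 555 kb gap on chromosome 2:
inside chr2:16452243-16452282, plus strand: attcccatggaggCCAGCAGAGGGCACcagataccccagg
Another, in an intron of Arhgap15 in a 728 kb gap, had a signal of 20.6, with 14.7 in replicate 1 and 4.52 in replicate 2:
inside chr2:44337191-44337230, minus strand: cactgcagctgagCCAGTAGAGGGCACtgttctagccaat
So a core matching the consensus at all bases was found in gaps both with and without a weak peak over it.

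The gaps ran from 400.1 to 5489.9 kb, with a median length of 615 kb and 95% of them under 2008 kb. Of the 763, 366 were of 400 to 600 kb, 235 of 600 kb to 1 Mb and 162 of at least 1 Mb, and these last made up 272 of the 629 Mb. At the limit on length, 29 gaps of 400 to 410 kb were kept, with a median GC content of 39.6%, and 35 intervals of 390 to 400 kb were not, the longest of them at 399.5 kb, with a median of 39.1%. The limit on N left out 16 of 779 intervals, at 10.4 to 83.6% N, and kept 21 with some N, up to 9.56%. Each of the 19 chromosomes held gaps. They took 12.6% of chromosome 11, which has the highest density of optimal summits (27.5 per Mb), and 32.8% of chromosome 14. Across the 19 chromosomes the share in gaps and the GC content of the chromosome had a Spearman correlation of -0.46, given as a description across chromosomes of 1 peak list.

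Gaps often adjoined each other. Only a single optimal peak lay between gaps at 142 places, so that the 763 gaps formed 621 runs. Of these, 513 were a lone gap, 82 held 2 gaps, 19 held 3, 6 held 4 and 1 held 5. The run of 5 was at chr3:42111215-45319459, where 4 lone peaks stood within 3208 kb and no protein-coding gene had its 5′ end. A run of 4 at chr2:85725963-90474925 held 219 protein-coding 5′ ends, olfactory receptor genes among them.

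The sequence of the gaps was poorer in GC than that of shorter intervals. GC content was 38.5% over all gaps, 40.5% in intervals of 200 to 400 kb and 45.7% in those under 50 kb. Within the gaps it was lower the longer they were, with 39.4% at 400 to 600 kb, 38.6% at 600 kb to 1 Mb and 37.9% at 1 Mb or more. CpG dinucleotides numbered 5.60 per kb in gaps and 12.1 per kb in intervals under 50 kb. Repeat-masked bases made up 41.9% of gap sequence, 34.4% at 200 to 400 kb and 27.3% under 50 kb. The gaps drawn from the strongest 44533 peaks of each library gave 38.5% GC in both (38.50 ± 0.018, SD, n = 2), against 43.2% in the other intervals of each.

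**Figure D1:**
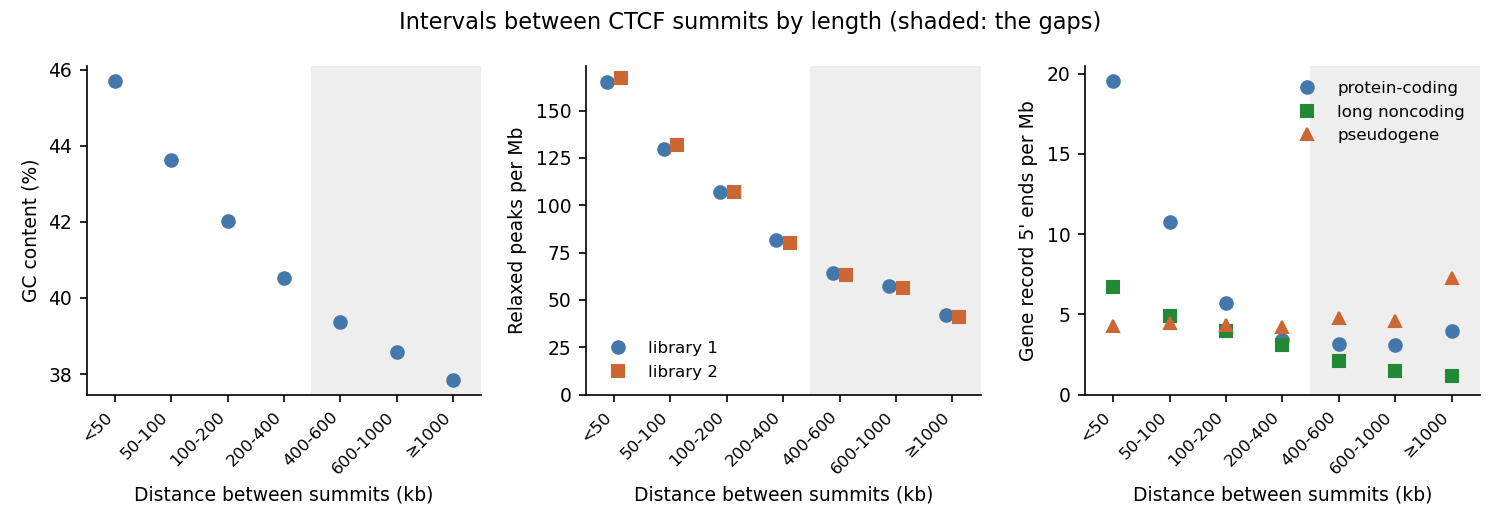
Intervals between successive CTCF summits, grouped by length on the x axis in kb, with the gaps shaded. From left to right the y axes show GC content in percent, relaxed peaks of each library per Mb (1 point per library), and 5′ ends of gene records per Mb by type; GC and relaxed peaks are lowest in the longest intervals, at 37.9% and at 42.2 and 40.9 per Mb, while pseudogenes reach 7.25 per Mb in gaps of 1 Mb or more.

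Single gaps varied more than the averages. GC content per gap ran from 35.1 to 49.3%, with a median of 38.4% and 90% of gaps between 36.4 and 42.6%. The lowest was the 481 kb gap chr15:48102812-48583488, which lies within the gene record of Csmd3. The highest was chr4:153484602-153922286, of 438 kb and with no protein-coding 5′ end, and another of the 3 highest, chr4:152700322-153110390, lies less than 1 Mb from it at 48.4%. Length and GC content had a Spearman correlation of -0.37 across the 763 gaps, which are neighbours on shared chromosomes.

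**Figure D2:**
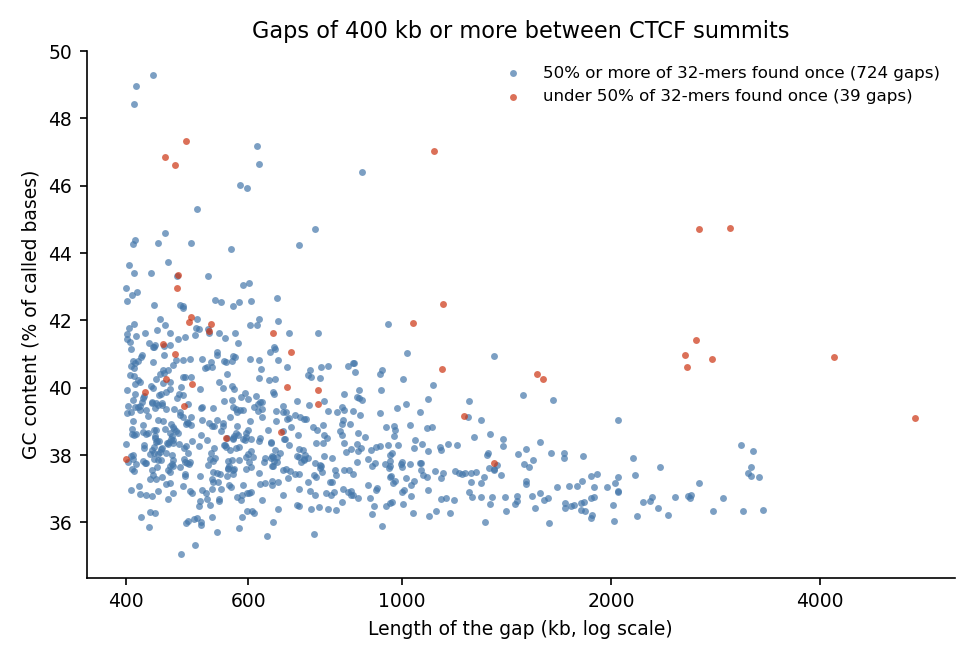
GC content (percent of called bases, y axis) against the length (kb, log scale, x axis) of each of the 763 gaps. Red points are the 39 gaps in which fewer than 50% of sampled 32-base words occur once in the genome; blue points above 2000 kb stay below 40% GC, while the red points reach 47.3%.

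Some gap sequence has copies elsewhere in the genome, and how reads with several matches were treated is not given in the sources used here. To measure this, 32-base words were sampled each 200 bases and counted over chromosomes 1 to 19, X and Y. The share found only once was 76.4% in gaps, 83.8% in intervals of 200 to 400 kb and 91.3% in those under 50 kb. It was under 50% in 39 gaps, which span 48.4 Mb, hold 603 of the 2189 protein-coding 5′ ends in gaps and have 8.25 pooled relaxed peaks per Mb against 47.5 in the other 724. The lowest share, 4.13%, was in chr14:69241730-69697265, which holds 5′ ends of Slc25a37, a mitochondrial iron transporter of red cell precursors, and of Entpd4 and its near copy Entpd4b. Only 1 gap had no relaxed peak, chr12:21784539-24462358, where 9.58% of words were found once. Across the 763 gaps the share found once and relaxed peaks per Mb had a Spearman correlation of 0.75, and 0.71 across the 724, as a description, since both depend on the same sequence. The part of repeated sequence in the absence of optimal peaks was not tested, because read length and the mapping filter are not known here.

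The 10 longest gaps, from 3078 to 5489.9 kb, were of 2 kinds: 4 held arrays of receptor or related genes and 6 held 2, 1 or no protein-coding 5′ ends. The longest, chr7:7299533-12789413, holds 61 protein-coding 5′ ends, of which 27 are vomeronasal type 2 and 19 type 1 receptors (the longest records are Vmn1r68 and Vmn2r56), and 159 pseudogenes. Only 30.2% of its 32-base words were found once. Its left border lies in an exon of Clcn4, a chloride/proton exchanger gene, and its right border in an intron of Zscan18. The second, chr7:19956708-24153462, holds 108 protein-coding 5′ ends, the most of any gap, with 65 vomeronasal type 1 receptors and Nlrp9b and Nlrp4e of the oocyte-expressed Nlrp family. Its share of words found once was 16.1%, and it has 19 relaxed peaks in 4197 kb. The gaps chr17:37250739-40430654, with 41 olfactory receptors such as Olfr111 and the sperm protein gene Crisp1, and chr17:17899425-21053495, with 21 type 2 and 10 type 1 vomeronasal receptors such as Vmn2r91 and Vmn2r102, had 67.6% and 74.1% of words found once.

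The other 6 of the 10 longest held few protein-coding genes. Those of rank 5, 9 and 10, chr1:100557105-103762952, chr14:80845743-83944404 and chr1:112456263-115533955, had no protein-coding 5′ end in 3206, 3099 and 3078 kb. The nearest such ends outside them were Cntnap5b and Cdh20, Olfm4 and Pcdh17, and Dsel and Cntnap5a, up to 1006 kb beyond the border in the case of the cadherin Cdh20. The gap of rank 3, chr8:50293741-53607249, holds only Aga, a lysosomal enzyme gene, as a protein-coding 5′ end, and lies between Tenm3 and the DNA repair gene Neil3. The gap of rank 4, chr11:12990693-16261437, holds Vstm2a and Pom121l12 and lies between Cobl and Sec61g, and that of rank 6, chr3:10685322-13866530, holds the start of Ralyl (711 kb), an RNA-binding protein gene, between Snx16 and Slc7a12. Between 76.3 and 83.1% of words in these 6 gaps were found once. They held 84 to 141 pooled relaxed peaks each, the strongest at signals of 8.97 to 11.5, where the median optimal peak has 61.4. By the rule, no optimal peak can be among them.

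**Figure D3:**
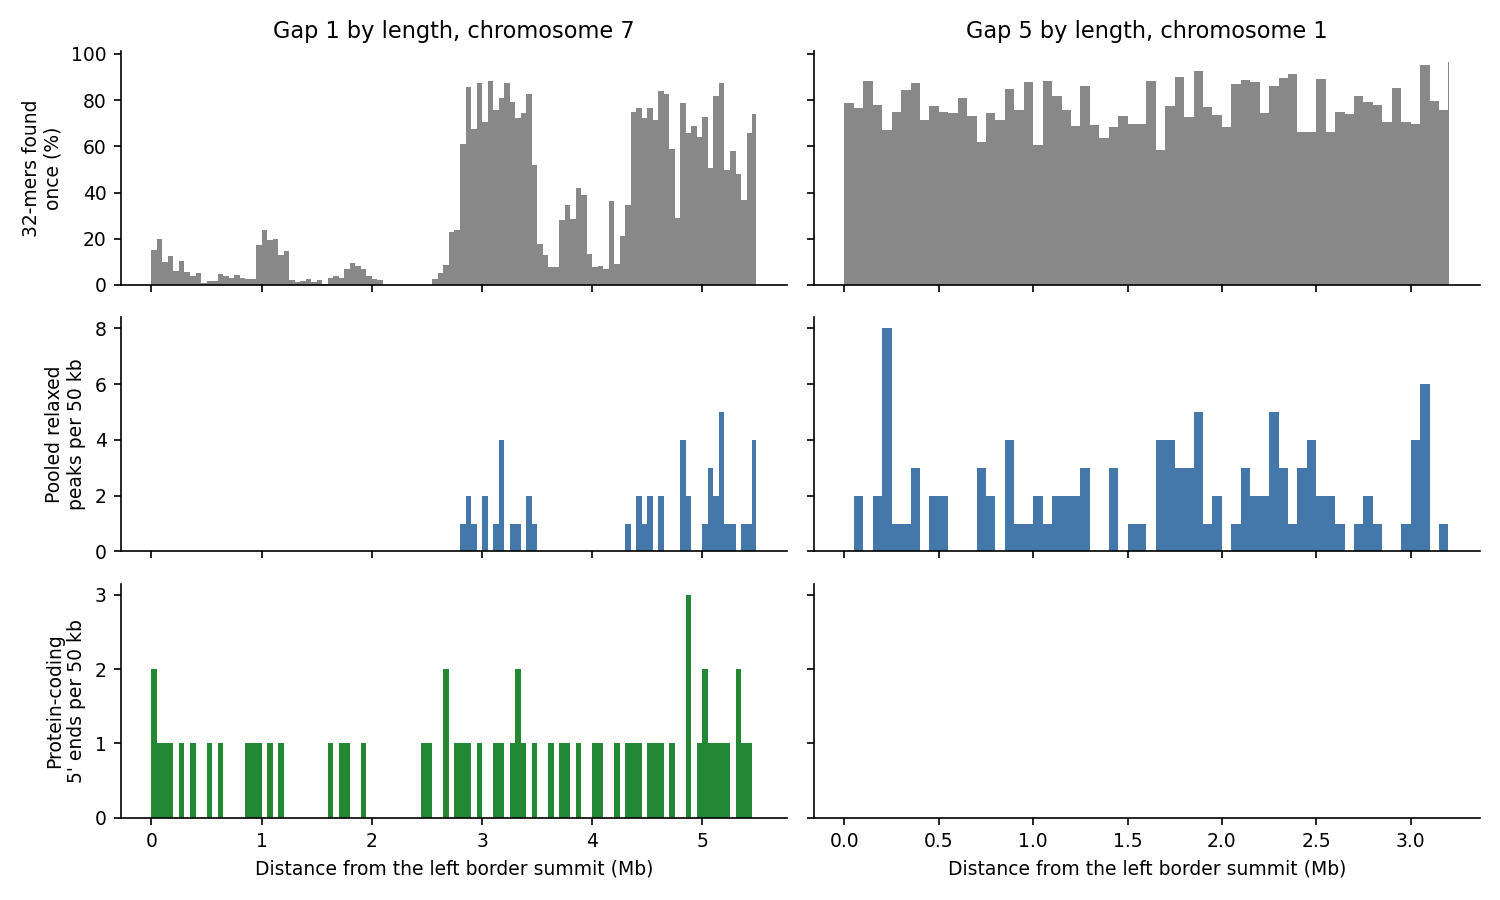
The longest gap (left column) and the fifth longest (right column), in bins of 50 kb by distance from the left border summit in Mb. Rows show the percent of 32-base words found once, pooled relaxed peaks and protein-coding 5′ ends per bin. In the longest gap, 77 bins with under 50% of words found once hold 3 relaxed peaks and 35 protein-coding 5′ ends, and the 33 other bins hold 46 and 26; in the fifth, all 65 bins are above 50% and hold 116 relaxed peaks and no protein-coding 5′ end.

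Genes were unevenly spread over the gaps. With 2189 protein-coding 5′ ends the gaps had 3.48 per Mb, against 3.41 in intervals of 200 to 400 kb and 19.5 in those under 50 kb. Long noncoding RNA genes numbered 1.50 per Mb in gaps, against 3.08 and 6.71. Pseudogenes numbered 5.79 per Mb in gaps, against 4.21 at 200 to 400 kb and 4.26 under 50 kb. No protein-coding gene began in 378 gaps (49.5%), 1 in 223, 2 to 9 in 102 and 10 or more in 60. These 60 gaps held 1578 of the 2189 (72.1%), at 21.9 per Mb, and had a share of words found once of 49.4%. At the other end, 23 gaps held no 5′ end of a gene record of any type, with a median length of 511 kb.

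Of all 20807 protein-coding genes of these chromosomes, 10.5% had the 5′ end in a gap, as did 16.7% of all gene records and 31.4% of pseudogenes. Such genes had a median length of 7.05 kb against 19.3 kb for the others. Only 32 of the 2189 (1.46%) began within 1 kb of a border summit, while 21.9% of all protein-coding genes begin within 1 kb of an optimal summit. The median distance from a 5′ end in a gap to the nearest border was 204 kb, and the farthest was Vmn2r50 at 2736 kb. Since a gap has no optimal summit inside it, these distances follow partly from the rule.

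Chemosensory receptors made up much of the gene content. Olfactory receptors detect odorants, and vomeronasal receptors detect pheromones. Both are expressed in sensory neurons of the nose and are encoded in tandem arrays. Of 1128 olfactory receptors 748 (66.3%, exact 95% interval 63.5 to 69.1%) began in 27 gaps, with 83 in chr2:86464897-88356490. Among type 1 vomeronasal receptors 140 of 208 (67.3%, 60.5 to 73.6%) began in 9 gaps, and among type 2 receptors 87 of 119 (73.1%, 64.2 to 80.8%) in 12. Together these 975 genes are 44.5% of the protein-coding 5′ ends in gaps, in 43 gaps. Without them 1214 of 19352 genes (6.27%) began in gaps, at 1.93 per Mb. Intervals on shares cover counting error only, and neighbouring members of an array share a gap and are not independent.

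Shares of the 3 receptor families were also taken without the gaps of repeated sequence. In gaps where 50% or more of words were found once, a limit chosen after the data were seen, 64.5% of all olfactory receptors still began in a gap, while the share of type 1 vomeronasal receptors was 26.4% and that of type 2 was 42.0%. The gap with most type 1 receptors is the second longest, with 16.1% of words found once, and that with most type 2 receptors is the longest, in which Vmn2r30 and Vmn2r31 begin. The 43 receptor gaps had 20.6 pooled relaxed peaks per Mb, with 27.2 and 27.0 per Mb in the libraries' own lists. The 342 gaps with only other protein-coding 5′ ends had 44.3 pooled, and 52.0 and 51.1. Their once-found shares were 57.4% and 74.1%.

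Other arrays also fell in single gaps. Of 26 prolactin family genes, which encode hormones of the pituitary and placenta, 24 (92.3%) began in 2 gaps, 21 of them, with Prl itself and Prl2a1, in chr13:26914931-27945274. Of 11 Skint genes, the family of the skin T cell selection gene Skint1, 9 lay in chr4:111961502-114129023, and 18 of 26 killer cell lectin-like receptors, which natural killer cells carry, lay in chr6:129581490-131290639 with Klra1 and Klra10. Cytochrome P450 genes, which oxidise drugs and steroids, began in gaps in 38 of 99 cases (38.4%), 14 of them, with Cyp2c29 and Cyp2c37, in chr19:38982177-40225622. All 22 defensin genes in gaps, of 64 listed, were in chr8:21001327-21756584, where 13.98% of words were found once, so that none lay in a gap above the 50% limit. Zinc finger genes named Zfp, of which 38 of 385 (9.87%) began in 20 gaps, and keratin and keratin-associated genes, with 10 of 106 (9.43%) in 1 gap, were near the share of all protein-coding genes. None of 57 clustered protocadherins (up to 6.27% by the exact interval) and none of 22 UDP glucuronosyltransferases (up to 15.4%) began in a gap.

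Antigen receptor segments are pieces of gene that lymphocytes join into immunoglobulin and T cell receptor genes. Of all such segment records 31.8% began in a gap. Among immunoglobulin variable segments the share was 62.8% (137 of 218), in 4 gaps, with 89 of them, such as Ighv1-11 and Ighv1-12, in chr12:113981806-116028292. Among T cell receptor variable segments it was 10.4% (15 of 144), all in chr14:52343797-52810833 with Trav1 and Trav2. These shares were the same in gaps above the 50% limit.

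**Figure D4:**
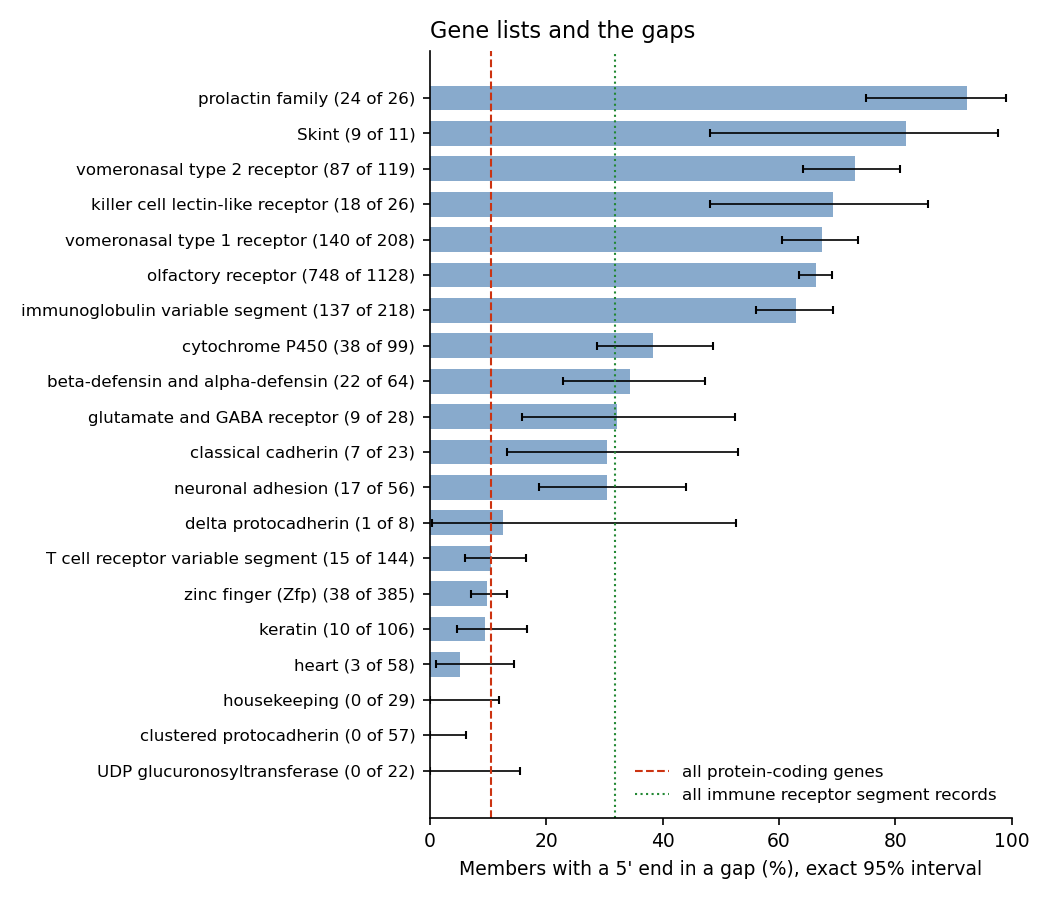
Percent of the members of each of 20 gene lists whose 5′ end lies in a gap (x axis), with exact 95% binomial intervals as error bars and counts beside the names. The dashed line is the 10.5% of all protein-coding genes and the dotted line the 31.8% of all antigen receptor segment records. Prolactin, Skint, olfactory, vomeronasal, killer cell lectin-like receptor and immunoglobulin variable lists lie above 60%, while 3 lists are at 0.

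Some long genes also began in gaps. Of 218 protein-coding records of 500 kb or more, 55 (25.2%) began in a gap. A list of neuronal adhesion and related genes was, like the other lists, chosen with earlier results of these data known. Of its genes 17 of 56 (30.4%, 18.8 to 44.1%) began in 17 different gaps, against 10.5% of all protein-coding genes. These gaps had a median share of words found once of 84.7%. With only whole gene records counted, 8.93% of the list lay in gaps, and of all protein-coding genes 2028 of 20807 lay whole in a gap. Nrg3, a neuregulin, began in a 2153 kb gap. The 5′ ends of the synapse organisers Slitrk6 and Lrrtm4 lay 0.09 and 0.037 kb inside their gaps, beside the border summits. Others were deep inside, such as Cntn4 at 651 kb and Epha5 at 639 kb. Of 28 glutamate and GABA receptor genes 9 (32.1%, 15.9 to 52.4%) began in gaps, among them the kainate receptor Grik2 in a gap of 2899.8 kb, 411 kb from a border. Counted by whole gene records, 10.7% of this list lay in gaps. Of 23 classical cadherins 7 (30.4%, 13.2 to 52.9%) began in gaps, with Cdh7 and Cdh19 sharing chr1:108827426-111242559 at 1155 and 265 kb from its borders. The intervals of these 3 lists all take in the 25.2% of long records, and the part of gene length in the shares was not tested. Of 8 listed delta protocadherins only Pcdh18 did, and none did with the conservative list or with either library alone.

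Heart and housekeeping genes were counted in the same way. In a list of 58 genes of cardiac muscle and heart development 3 began in gaps (5.17%, 1.08 to 14.4%). Of 29 housekeeping genes none did (up to 11.9%). The 10.5% of all protein-coding genes lies within both intervals. So does the 6.27% of protein-coding genes other than olfactory and vomeronasal receptors, so neither list was set apart from other genes. Tbx3, a transcription factor of the conduction system, began 0.065 kb inside chr5:119053922-119670734, a gap of 617 kb with 47.2% GC, 95.8% of words found once and 96 relaxed peaks (156 per Mb). Isl1, a factor of cardiac progenitors, began 2.67 kb inside a 633 kb gap with 30 relaxed peaks, and Mef2c, a muscle transcription factor, 28.2 kb inside a 463 kb gap with 39. Only 2 gaps had more relaxed peaks per Mb than that of Tbx3. These, named after their values were seen, held only Sox4 (188 per Mb, 101 peaks) and only Ankrd50 (172 per Mb, 70 peaks) as protein-coding 5′ ends.

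In 40 cases (5.24% of the gaps) a whole gap lay inside 1 protein-coding gene record. These gaps had a median length of 548 kb, up to 964 kb, and the 36 genes were 523 to 2271 kb long, with a median of 1139 kb. A gene around a whole gap must be longer than 400 kb, so the length of these genes follows partly from the rule. The 10 longest of these genes were Ptprd, Cntnap2, Lrp1b, Macrod2, Dlg2, Csmd1, Ctnna3, Magi2, Naaladl2 and Lrrc4c. Ptprd, Cntnap2, Macrod2 and Dlg2 held 2 gaps each. In Cntnap2, a neurexin-like adhesion gene of 2245 kb, gaps of 709.7 and 928 kb took 31.6% and 41.3% of the gene, which has 7 optimal summits in all. Magi2, a synaptic scaffold gene, had 1 gap of 948 kb, 64.2% of its length, and Dlg2, another scaffold gene, had gaps of 714 and 426 kb beside 12 optimal summits. The 40 gaps had a GC content of 38.1%, 87.5% of words found once and 57.9 pooled relaxed peaks per Mb, from 28.6 to 123 in single gaps. Here the share of words found once was higher, and repeat masking (32.4%) lower, than over all gaps.

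CTCF cores were present in the gaps, but at lower density. Away from optimal summits the 14-base core with at most 2 mismatches, on either strand, numbered 131 per Mb in gaps, 160 at 200 to 400 kb and 297 in intervals under 50 kb. Windows of 101 bases laid end to end held such a core in 1.14% of cases in gaps and 1.97% in the other intervals. Cores with 0 mismatches numbered 245 in the gaps, or 0.390 per Mb, against 0.407 and 0.739. Of these 245, 72 (1.51 per Mb) lay in the 39 gaps with under 50% of words found once. The other 724 gaps held 173 (0.298 per Mb). In gaps 64 of the 245 (26.1%) were in masked sequence. With 1 mismatch allowed there were 8920, of which 62.8% were masked, against 38.9% elsewhere. Across the 763 gaps cores per Mb and GC content had a Spearman correlation of 0.80, as a description, since the consensus is itself rich in G and C.

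Few of these cores carried even a weak peak. Of the 245 cores with 0 mismatches, 37 (15.1%, 10.9 to 20.2%) had a pooled relaxed summit within 50 bp, while away from optimal summits elsewhere 360 of 938 did (38.4%, 35.3 to 41.6%). With up to 2 mismatches it was 1.84% of 82573 in gaps and 5.30% of 399660 elsewhere. However, 72 of the 245 lay in the 39 gaps with under 50% of words found once. Those gaps had 8.25 pooled relaxed peaks per Mb, against 47.5 in the other 724. The part of repeated sequence in these shares was not tested. Relaxed peaks as a whole were sparser in gaps, at 44.5 per Mb in the pooled list, 76.6 at 200 to 400 kb and 176 in intervals under 50 kb. In the libraries' own lists the gaps had 52.7 per Mb in replicate 1 and 51.5 in replicate 2. In these lists the rate at 200 to 400 kb was 81.5 and 80.0, so the libraries differed by less than the groups of intervals did. These rates come from the same reads as the list that set the gaps.

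The relaxed peaks that did fall in gaps were weak, which follows partly from the rule, since a gap holds no optimal summit. Their signals were not compared with those of relaxed peaks outside the gaps that are also off the optimal list. Their median signal was 5.97, and in 763 gaps the strongest one had a median of 10.8 (762 gaps had any). In 74 gaps (9.70%) the strongest lay above the 10th percentile of optimal peaks (17.6), and in 0 above the optimal median. The strongest of all, at 41.7 in the pooled list, 23.9 in replicate 1 and 16.6 in replicate 2, lay on chromosome 5 in a 540.4 kb gap, 119 kb from its border, with a core of 2 mismatches. It is in the conservative IDR list, which holds 142 peaks inside the gaps.

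Each library on its own left most of the gaps empty, which follows partly from the rule. The optimal list that set the gaps, the conservative list and the lists of each library all come from the same reads. The counts below are therefore descriptions and no independent check of the gaps. Among the 44533 strongest peaks of replicate 1, 189 fell in the gaps, and among those of replicate 2, 210 did (199.5 ± 14.8, SD, n = 2). No such peak of replicate 1 fell in 599 gaps (78.5%), none of replicate 2 in 594 (77.9%) and none of either in 499 (65.4%). The conservative list had no peak in 644 (84.4%). Gaps rebuilt from replicate 1's peaks numbered 773 and shared 94.3% of the gap length, and those from replicate 2 numbered 759 and shared 93.8%.

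The peaks that border the gaps were weaker than others. Gaps had 1384 border peaks, 3.19% of optimal peaks, of which 142 stood between 2 gaps. Their median signal was 49.9, with quartiles of 26.1 and 94.1, against 61.4 (27.5 and 129.9) for all optimal peaks. In replicate 1 the medians were 27.0 and 33.8, and in replicate 2 they were 22.3 and 28.8. Peaks between 2 gaps had a median of 33.2. With the optimal list split by signal into 10 equal parts, the share that bordered a gap was 2.77% in the weakest, 4.31% in the fifth and 1.06% in the strongest. Of the border peaks 1360 (98.3%) had a summit in both relaxed lists, as did 40737 of the 41996 other optimal peaks.

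Most border peaks lay between genes. Of the 1384, 817 (59.0%, 56.4 to 61.6%) were intergenic, against 33.9% of the other optimal peaks, 506 (36.6%) were in a gene record and 115 (8.31%) within 1 kb of a gene 5′ end, where the others had 14.4%. A peak near a 5′ end can also be in a gene record, so those groups overlap, while intergenic peaks are in neither. The nearest protein-coding 5′ end was a median of 160 kb away, against 22.0 kb for the others and 544 kb for peaks between 2 gaps. GC content within 50 bp of the summit had a median of 47.5%, against 52.5%. A core with at most 2 mismatches lay at 77.2% of border peaks (74.9 to 79.4%) and at 73.3% of the others, and was masked in 11.9% and 18.3% of those.

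The direction of the cores was taken where both border peaks had 1 best core. In 436 such gaps the cores pointed into the gap, a convergent pair, in 156 (35.8%, 31.3 to 40.5%). They pointed away from each other in 70 (16.1%, 12.7 to 19.8%) and the same way in 210 (48.2%). At 200 to 400 kb the convergent share was 33.9% (30.4 to 37.6%) of 672 pairs, at 50 to 100 kb 27.6% and under 50 kb 19.6%. In gaps of 1 Mb or more it was 33.3% (24.4 to 43.2%) of 105 pairs, an interval that takes in the shares at 100 to 200 kb (30.6%) and at 400 to 600 kb (39.2%). Neighbouring intervals share a peak and are not independent.

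Around the borders GC content, protein-coding 5′ ends and relaxed peaks were each highest in the first 10 kb on either side. Averaged over both borders of all gaps, GC content was 39.6% in the first 10 kb inside and 38.8% at 190 to 200 kb, against 39.9% in the first 10 kb outside and 39.9% at 190 to 200 kb. Protein-coding 5′ ends numbered 7.01 per Mb in the first 10 kb inside and 3.80 in the next 10 kb, and 9.24 and 5.51 outside. Pooled relaxed peaks numbered 73.0 per Mb in the first 10 kb inside and 47.2 at 190 to 200 kb, and 100.1 and 86.8 per Mb outside. By the rule no optimal peak lies inside a gap, while the bins outside can hold them. The difference in relaxed peaks between the sides therefore follows partly from the rule. The outside of 142 border peaks is itself a gap.

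**Figure D5:**
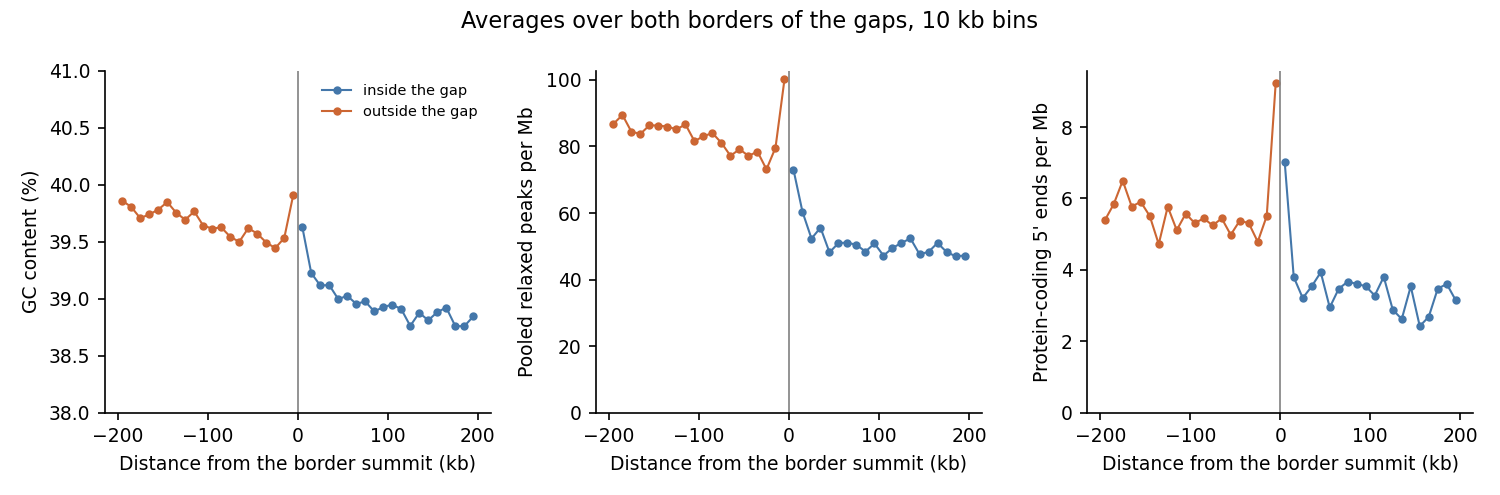
GC content (percent), pooled relaxed peaks per Mb and protein-coding 5′ ends per Mb in bins of 10 kb, by distance in kb from the border summit, averaged over both borders of the gaps (about 1525 windows a bin). Negative distances are outside the gap, where, unlike inside, optimal peaks can lie. Inside, 5′ ends drop from 7.01 to 3.80 per Mb after the first bin.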

How the data were processed

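CTCF ChIP-seq peaks of 2 libraries of newborn mouse heart were used. Per the text files beside them, the authors called 3 relaxed lists on each library and on both together, against a control alignment, and derived 2 IDR lists. Aligner and caller names: not given in the sources used here. Each peak's signal is the deposited value, unscaled between libraries. The deposited q-value column falls below 0 in some lists, so it is treated as a score of the authors and was not used. Read depth cannot be had from peak lists, so no interval on a signal is given. Positions are 1-based in mm10.

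Gaps, base composition and 32-base words were computed on GRCm38.p6, and genes come from GENCODE M21 (Python 3.11.15, numpy 2.4.6, numba 0.67.0, pandas 2.3.3, scipy 1.17.1). Densities are per Mb of called bases. Positions within 50 bp of a border summit were left out of counts of cores and relaxed peaks inside. A library's signal at a peak is that of its relaxed summit within 100 bp. A core was masked where 7 or more of its 14 bases were in lower case. Core search, word counts and intervals were tested on simulated data.

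The gaps and the 20 gene lists were chosen with earlier results of these data known; 6 listed names matched no record. Named genes are those that begin in, or next to, the 10 longest gaps (at most 2 a gap), the 10 longest genes around a gap, and for each list the 2 members in the longest gaps; others named were chosen after their values were seen. A few genes that meet the rule are not reported here. With 1 group, no test was made. Alternatives were the conservative list, each library alone, both IDR lists, no weak peaks, other limits on length, N and mismatches, and transcript 5′ ends.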

Additional observations from a re-analysis of the deposited data

How the results depend on the processing

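No paired analysis was possible because there is only 1 group. The values below are the number of gaps, then their GC content, protein-coding 5′ ends per Mb, cores per Mb away from optimal peaks, convergent share of border pairs, median border signal and pooled relaxed peaks per Mb, the count of gaps being given wherever peaks or limits differed and the others where they moved by more than the SD between the libraries, which is small. With the conservative list there were 783 gaps, with 38.5% GC, 3.45 5′ ends, 132 cores and 32.6% convergent. With gaps of at least 300 kb there were 1174 gaps, with 38.8% GC, 3.37 5′ ends, 135 cores and 49.2 relaxed peaks; with at least 500 kb, 534 gaps, with 38.3% GC, 3.59 5′ ends, 128 cores, 32.7% convergent and 42.0 relaxed peaks. Under 1% N gave 749 gaps, with 38.4% GC, 3.17 5′ ends and 129.9 cores, and under 50% N gave 777, with 38.5% GC, 3.64 5′ ends and 133 cores. Both IDR lists together gave 742 gaps, with 38.5% GC, 3.52 5′ ends, 131 cores, 33.6% convergent and a border signal of 44.9. Without the weakest 10% of optimal peaks there were 804 gaps, with 38.6% GC, 3.41 5′ ends, 132 cores, 37.4% convergent, a border signal of 55.1 and 46.5 relaxed peaks. With at most 1 mismatch there were 14.2 cores and 37.2% convergent pairs, and with at most 3 mismatches 1158 cores. Transcripts in place of genes gave 6.78 5′ ends, as a gene has several. The 724 gaps with at least 50% of words found once, an alternative chosen after seeing the data, had 38.3% GC, 2.73 5′ ends, 125.5 cores, 37.2% convergent pairs and 47.5 relaxed peaks. Leaving out 1 library gave 759 to 773 gaps, 38.49 to 38.52% GC, 3.46 to 3.49 5′ ends, 131.6 to 131.7 cores, 32.7 to 34.7% convergent, border signals of 22.8 to 25.6 on the scale of 1 library, and 51.1 to 52.8 relaxed peaks from that library's own list.

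Of the shares of gene lists in gaps, that of delta protocadherins was 0 with the conservative list and with either library alone, since Pcdh18 is the only member in a gap. With replicate 1's peaks alone, 76.9% of type 1 vomeronasal receptors began in gaps. Counting only whole gene records inside a gap lowered neuronal adhesion and related genes to 8.93% and glutamate and GABA receptors to 10.7%. With the 50% limit Zfp genes came to 6.49% and defensins to 0. Peak lists carry no read depth, so whether a gap would hold peaks at greater depth could not be asked.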
